A study of Danio rerio with 9 samples.

Results

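The 8 genes described here encode proteins of the neutrophil granule and of neutrophil effector function: mpx, lyz, npsn, mmp9, srgn, lect2l, cpa5 and adam8a. They were chosen by symbol, and each was listed in all 9 libraries under the same identifier, so that 8 of the 24201 genes shared by the gene lists were followed. The Ensembl identifiers are ENSDARG00000019521 (mpx), ENSDARG00000057789 (lyz), ENSDARG00000010423 (npsn), ENSDARG00000042816 (mmp9), ENSDARG00000077069 (srgn), ENSDARG00000033227 (lect2l), ENSDARG00000021339 (cpa5) and ENSDARG00000001452 (adam8a). The libraries hold single-cell RNA counts from zebrafish of the EK strain carrying tg(cd41:GFP), sorted for a low GFP signal, at 2.5, 6, 10 and 16 days post fertilization (dpf). Animals were wild type (WT, 4 libraries) or runx1-/- (del8, hg96; 5 libraries), with 1 library per genotype and age, except that 16 dpf had a runx1-/- library labelled bloodless and another labelled recovered. All groups share the strain and the transgene, in which the cd41 promoter drives GFP in thrombocytes and in blood stem and progenitor cells. The labels do not give the number of animals per library or define bloodless and recovered. The gate selects cells by a reporter that mature neutrophils are not known for, so shares of cells here are shares of this gate and not of the blood of an animal.

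Neutrophils carry antimicrobial enzymes in granules, which they fill while they mature in the marrow or, in zebrafish, in the haematopoietic tissue. In mammals the granule classes are made in order: peroxidase-bearing granules in dividing promyelocytes, then lactoferrin-bearing granules, then gelatinase-bearing granules in cells that have stopped dividing. Runx1 is a transcription factor needed for definitive blood stem cells to emerge from endothelium. Among the 8 genes, mpx encodes the myeloid peroxidase that makes hypochlorous acid, lyz encodes lysozyme, which cleaves bacterial walls, and npsn encodes nephrosin, a metalloendopeptidase of the astacin family. Cpa5 is a carboxypeptidase that is also used as a marker of zebrafish mast cells. Mmp9 is gelatinase B, and adam8a encodes a membrane metalloproteinase of the ADAM family. Srgn encodes serglycin, the proteoglycan core that packs granule contents, and lect2l encodes a secreted protein related to leukocyte chemotaxin.

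After filtering, 28875 cells remained of 30917 barcodes, and median depth per library ran from 4292.5 unique molecular identifiers (UMIs) in runx1-/- at 6 dpf to 13402.5 in WT at 6 dpf. The 2.5 dpf libraries differed from the later ones in their gene list, in the start of their barcodes and in the smallest barcode deposited (at least 2907 UMIs against 500 to 505), so age and these differences cannot be told apart. WT and runx1-/- at 6 dpf shared 22 barcodes, with a median depth of 725 UMIs in WT and 32789.5 in runx1-/-. None of these was neutrophil-like, and they held 2 of 128297 UMIs of the 8 genes in WT and 13 of 8283 in runx1-/-. UMIs of the runx1 gene itself numbered 1 to 133 per library, and per UMI counted they were higher in runx1-/- than in WT at every age (10.02 against 1.93 CPM at 6 dpf, where CPM scales a gene's UMIs to a common total of all UMIs in the cells counted). This says nothing of a deletion that leaves a transcript. With no replicate of a group, each within-age difference below has a 95% interval for counting error only, while adjusted p-values come from fits in which ages serve as repeats and measure only the spread between these libraries.

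Neutrophil-like cells formed 1 cluster at each age, found and named without the 8 genes, with 10 to 14 other neutrophil markers detected. Mmp13a led this cluster at 2.5 dpf and abcc13 at the later ages, where il6r, spi1b and ncf1 were also among its 10 leading genes, and the next best class was mast cell at every age. In WT they were 65 of 2161 cells at 2.5 dpf (3.01%), 84 of 2668 at 6 dpf (3.15%), 128 of 2530 at 10 dpf (5.06%) and 677 of 5815 at 16 dpf (11.6%). In runx1-/- they were 0 of 1162 cells at 2.5 dpf, which allows a share of up to 0.317% by the exact binomial interval, and 4 of 762 at 6 dpf. The limit at 2.5 dpf holds only for cells of at least 2907 UMIs, since that library held no shallower barcode. Neutrophil-like cells of the bloodless library had a median depth of 2674.5 UMIs. At 10 dpf runx1-/- had 187 of 3235 such cells (5.78%). With a stricter filter on cells the order at 10 dpf turned, with 7.42% in WT and 5.97% in runx1-/-. At 16 dpf the bloodless library had 90 of 3357 (2.68%) and the recovered library 369 of 7185 (5.14%), both under WT. Macrophage and erythroid markers were low in these cells: macrophage markers summed to 3 to 27 CPM over the 7 libraries with at least 10 such cells, and erythroid markers to 4 to 268, with the highest sum in the bloodless library. Mast cell and T lymphoid markers were not low throughout. Mast cell markers (hdc, alox5a, fcer1gl, kita) summed to 4214 CPM in WT at 2.5 dpf, 933 in the bloodless library and 99 to 276 in the other 5 libraries, while T lymphoid markers summed to 491 to 2305. The neutrophil markers summed to 8853 CPM in WT at 2.5 dpf and 3516 in WT at 16 dpf. Of the 10 T lymphoid markers, 8 had no UMI in these cells of WT at 2.5 and 6 dpf, and 4 had none at 16 dpf. Of the 4 mast cell markers, 2 had no UMI in these cells of WT at 2.5 and 16 dpf, and 1 had none in bloodless. Alox5a is also on the list of genes of neutrophil function used below. The part of mast cell and T lymphoid markers in the results below was not tested.

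Summed over all cells, lyz was counted in WT at 2558, 3105, 3895 and 11664 CPM at 2.5, 6, 10 and 16 dpf. In runx1-/- it was 1.96 at 2.5 dpf, 1377 at 6 dpf, 5394 at 10 dpf, 460 in the bloodless library and 2417 in the recovered one. At 2.5 dpf this was 22 UMIs of lyz against 68838, a log2 difference of -10.35 (interval -11.02 to -9.75). The sign was the other way at 10 dpf (0.47, interval 0.46 to 0.48), and the bloodless library was again far below WT (-4.66, interval -4.68 to -4.64). In such sums, fewer cells of a type and less RNA per cell cannot be told apart.

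The npsn differences had the same signs. Its level in all WT cells was 365, 56.8, 129 and 172 CPM at 2.5, 6, 10 and 16 dpf. The runx1-/- libraries held 0.178 at 2.5 dpf, 16.2 at 6 dpf, 179 at 10 dpf, 33.3 in bloodless and 68.8 in recovered. The 2.5 dpf value rests on 2 UMIs of npsn against 9833 in WT (log2 -11.00, interval -14.05 to -9.15). As for lyz, only 10 dpf had more in runx1-/- than in WT.

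The mpx level was lower in runx1-/- at every age, 10 dpf included. WT held 98.2, 42.3, 64.3 and 70.5 mpx CPM at 2.5, 6, 10 and 16 dpf. The runx1-/- libraries held 7.49 at 2.5 dpf, 4.61 at 6 dpf, 33.2 at 10 dpf, 16.0 in bloodless and 18.7 in recovered, so the highest runx1-/- value lay below the lowest WT value. How many of all genes were separated in this way was not counted. Across ages mpx fell by 2.84 on the log2 scale in runx1-/- (SE 0.51, adjusted p = 0.0363, edgeR quasi-likelihood test with age as a factor, lower in 5 of 5 comparisons).

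Mmp9 was the other gene that passed this test. Its WT levels were 43.0, 7.95, 50.4 and 40.8 CPM at 2.5, 6, 10 and 16 dpf. In runx1-/- they were 11.3, 5.61 and 32.6 at 2.5, 6 and 10 dpf, then 22.8 in bloodless and 12.1 in recovered. The groups overlapped, since WT at 6 dpf lay under 4 of the 5 runx1-/- libraries. Mmp9 fell by 1.56 on the log2 scale (SE 0.27, adjusted p = 0.0354, edgeR), and was lower in 5 of 5 within-age comparisons, 4 of them beyond counting error. Each call was lost when some libraries were left out: both without 6 dpf, 16 dpf, the bloodless or the recovered library, mpx also without 2.5 dpf and mmp9 without 10 dpf. Without the bloodless library (edgeR adjusted p = 0.155 for mpx and 0.148 for mmp9) the number of genes called fell from 214 to 3.

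The remaining genes did not pass in all cells. Cpa5 showed the largest estimate of the 8, with 44.4, 61.3, 79.3 and 325 CPM in WT at 2.5, 6, 10 and 16 dpf. In runx1-/- cpa5 was 0.0892 at 2.5 dpf (1 UMI), 5.01 at 6 dpf, 58.2 at 10 dpf, 17.7 in bloodless and 28.9 in recovered. It was lower in 5 of 5 comparisons, with an estimate of -4.17 (SE 0.92, adjusted p = 0.0657, edgeR). DESeq2 on the same sums passed cpa5, lyz and srgn as well, with adjusted p of 1.1e-06 for cpa5, 0.0217 for lyz and 0.0224 for srgn. It also called far more of all 18218 genes, 1425 (832 higher and 593 lower) against 214 in edgeR.

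Lect2l rose with age. It was counted at 43.7, 43.0, 104 and 825 CPM in WT at 2.5, 6, 10 and 16 dpf, and at 4.99, 13.2 and 259 in runx1-/- at 2.5, 6 and 10 dpf. At 16 dpf the bloodless library held 91.5 and the recovered library 371. With genotype held, lect2l spanned 4.31 on the log2 scale between 2.5 dpf, the lowest age, and 16 dpf, the highest (adjusted p = 0.0360, edgeR joint test of age), a call lost without 2.5 or 16 dpf. Its genotype estimate of -1.87 did not pass (SE 0.76, adjusted p = 0.249, edgeR).

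Srgn had 361, 255, 295 and 732 CPM in WT at 2.5, 6, 10 and 16 dpf, against 73.8, 232 and 417 in runx1-/- at 2.5, 6 and 10 dpf, 215 in bloodless and 231 in recovered. Adam8a had 8.55, 8.87, 15.04 and 11.7 in WT, against 1.43, 5.21 and 16.1 in runx1-/-, 15.1 in bloodless and 14.6 in recovered. Adam8a was above WT in the 3 later runx1-/- libraries, 2 of them beyond counting error, and below it at 2.5 and 6 dpf.

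In the fit across ages over all cells, 2 of the 8 genes were called lower and 0 higher, where 1.17% of all 18218 genes tested were called, 0.747% lower and 0.428% higher. The median estimate over the 8 genes was -2.30, against 0.07 over all genes. With library totals as the only scaling the median of all genes moved to 0.54, mmp9 lost its call, and the split of calls over all genes turned from 78 higher and 136 lower to 215 higher and 97 lower. For age, 2 of the 8 genes passed (lect2l and mmp9) against 22.8% of all genes. Mmp9 spanned 2.44 between 10 dpf, its highest age, and 6 dpf, its lowest (adjusted p = 0.0160, edgeR), and lost this call without 6 dpf, 10 dpf or the bloodless library (edgeR adjusted p up to 0.184). Of the 25 other genes of neutrophil function on a list of them, 23 were tested. Some of the list, among them cxcr1, csf3r, mmp13a, mmp25b and ncf1, are also neutrophil markers by which the clusters were named. The transcription factor genes cebpa (log2 -2.93, SE 0.33, adjusted p = 0.0077) and cebpb (-2.36, SE 0.35, adjusted p = 0.0197) fell in runx1-/-, and 0 rose. With age, the oxidase gene cybb and the transcription factor gene cebpd passed (cybb spanned 2.53 and cebpd 4.88, edgeR adjusted p = 0.0276 and 0.00038).

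**Figure D1:**
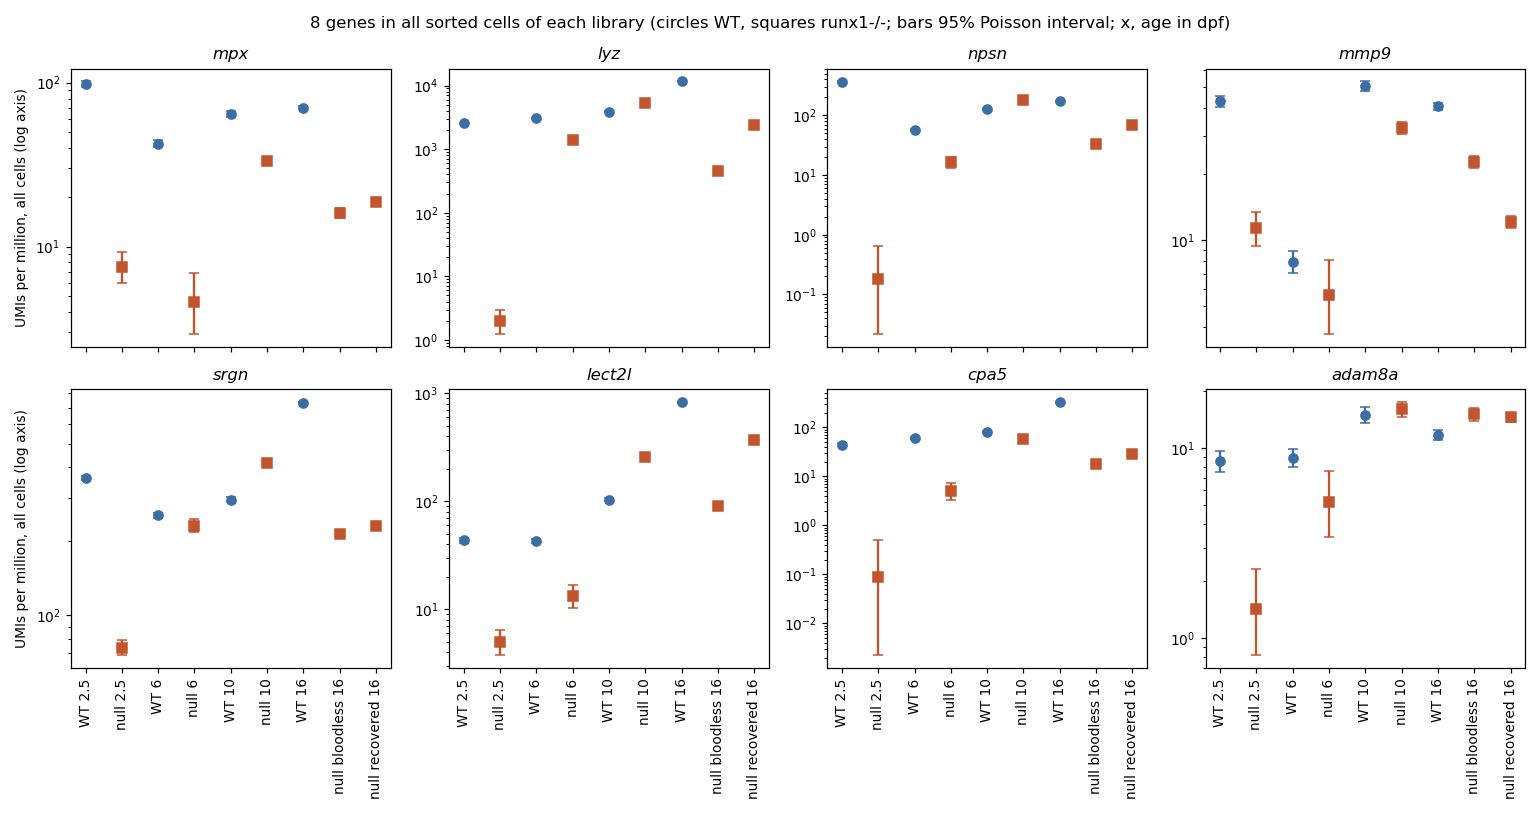
CPM of each of the 8 genes in all cells of each library, on a log axis, in the order of age; circles are WT, squares are runx1-/- (written null), and bars are 95% Poisson intervals. The runx1-/- library at 2.5 dpf is the lowest of all libraries for lyz, npsn, cpa5, lect2l, srgn and adam8a, and at 10 dpf runx1-/- lies above WT for lyz, npsn, srgn and lect2l.

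Where the UMIs lay differed by gene. For lyz, npsn and lect2l most lay in neutrophil-like cells: in the 8 libraries that had any, these cells held 87.5 to 99.6% of lyz UMIs, 85.9 to 99.7% of npsn UMIs and 84.6 to 99.2% of lect2l UMIs. Cpa5 ranged from 58.0% in the bloodless library to 100% of 25 UMIs in runx1-/- at 6 dpf. In the bloodless library another 31.7% of cpa5 UMIs, and 52.0% of mmp9 UMIs, lay in an unnamed cluster of 27 cells that scored best for macrophage. Srgn (26.2 to 75.1%), mmp9 (7.14 to 88.9%) and adam8a (11.5 to 76.4%) were spread over other cells too. Srgn was found, after thinning, in 6.74 to 66.2% of the cells of clusters that scored best for stem and progenitor cells (HSPC), and in 0 to 42.0% of erythroid-like cells.

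**Figure D2:**
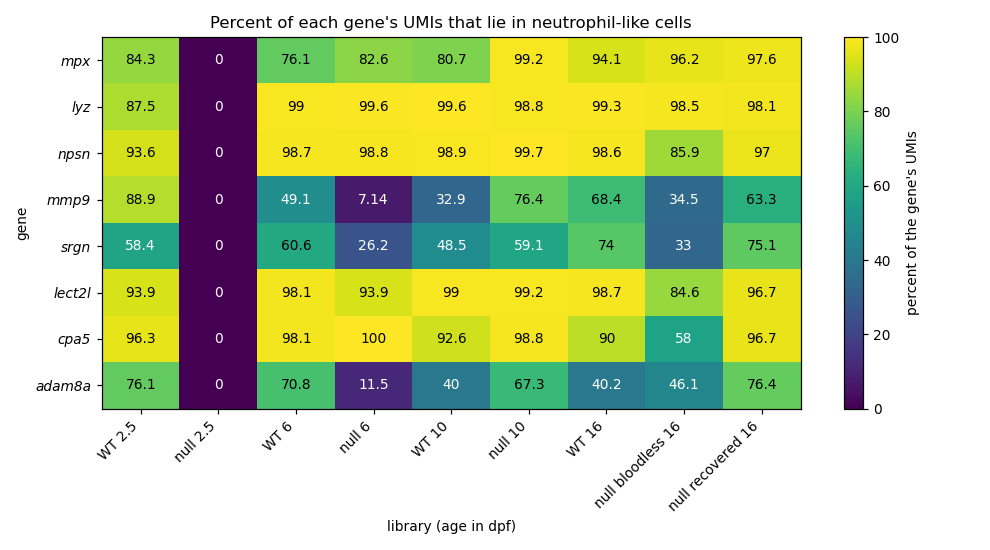
Percent of the UMIs of each gene that lie in neutrophil-like cells, for each library (null, runx1-/-). Lyz, npsn and lect2l stay above 84% in the 8 libraries with neutrophil-like cells, while srgn, mmp9 and adam8a vary; runx1-/- at 2.5 dpf has no such cell.

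The runx1-/- library at 2.5 dpf, which had no neutrophil-like cell, still held UMIs of the 8 genes, in other cell types. Of its 84 mpx UMIs, 72 lay in a cluster of 155 erythroid-like cells and 6 in another erythroid-like cluster of 29. Of its 127 mmp9 UMIs, 109 lay in 299 epidermis-like cells. Of its 56 lect2l UMIs, 35 lay in 72 macrophage-like cells and 19 in epidermis-like cells. Of its 828 srgn UMIs, 393 lay in erythroid-like cells. Lyz had 22 UMIs in all, npsn 2 and cpa5 1. The ratio of mpx to lyz differed between cell types: mpx stood at 3900 UMIs per 100 lyz UMIs in these erythroid-like cells (78 of mpx against 2 of lyz), and at 0.28 to 3.70 per 100 in the neutrophil-like cells of the 8 libraries that had any.

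Mpx was also found outside neutrophil-like cells in WT at every age. The 4 clusters described next, 1 per age, picked after their values were seen because they held the most mpx outside neutrophil-like cells, had blf, znfl2a and rhag, an erythroid membrane protein gene, among their leading genes. They held 220 mpx UMIs in 438 WT cells at 2.5 dpf (32.9 CPM, interval 28.7 to 37.5), 155 in 283 cells at 6 dpf (36.6, interval 31.1 to 42.9), 261 in 541 cells at 10 dpf (34.9, interval 30.8 to 39.4) and 174 in 796 cells at 16 dpf (11.1, interval 9.48 to 12.8). From 11.8% to 20.3% of the cells of these clusters had an mpx UMI. At 6 and 10 dpf mpx outnumbered lyz there, with 155 against 41 and 261 against 54 UMIs, whereas in neutrophil-like cells lyz outnumbered mpx in every library that had any. The runx1-/- libraries had 2, 1, 9, 8 and 32 cells in the same clusters, with 1 mpx UMI in all, too few to give a level. Over all clusters that scored best for HSPC, mpx was 17.3, 17.3, 35.0 and 5.64 CPM in WT at 2.5, 6, 10 and 16 dpf. It was 1.99, 0.99, 0.15, 0.79 and 0.58 in the runx1-/- libraries at 2.5, 6 and 10 dpf, bloodless and recovered. These values did not overlap between genotypes, counting error aside, but the clusters that make up this class differ between genotypes. The runx1-/- value at 2.5 dpf rests on 68 cells, none of which had an mpx UMI after thinning each cell to 2000 UMIs. The share of all genes without overlap in this class was not counted.

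Lyz was also found outside neutrophil-like cells in WT at 2.5 dpf. There a cluster of 539 cells led by tcf15, spi2, cebpb and cebpa, which scored best for HSPC and stayed unnamed, held 7450 lyz UMIs (932 CPM), with 422 of npsn (52.8 CPM) and 82 of mpx (10.3 CPM). Over the clusters that scored best for HSPC, npsn stood at 5.96 per 100 lyz UMIs and mpx at 4.11, against 15.3 and 3.70 in neutrophil-like cells of the same library. After thinning each cell to 2000 UMIs, 11.2% of 1339 such HSPC cells had a lyz UMI, against 2 of 50 erythroid-like cells, taken as background for lyz. This background rests on few cells, and the difference between these shares was not tested. In WT at 16 dpf the same shares were 10.7% and 7.18%. The erythroid-like cells were as deep or deeper than the neutrophil-like ones in 7 of the 8 libraries that had both (median 9380.5 against 9266 UMIs in WT at 2.5 dpf and 24693 against 9431 in WT at 16 dpf). They are no background for mpx at 2.5 dpf, where 16.0% of 50 WT and 3.80% of 184 runx1-/- erythroid-like cells had an mpx UMI.

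Counted as the share of all cells with a UMI after thinning to 2000 UMIs, 31 of 40 comparisons of a gene in a runx1-/- library with WT of the same age were lower in runx1-/-. Any difference was counted, and both runx1-/- libraries at 16 dpf were set against the same WT library. The same count over all genes was not made, so 31 of 40 says nothing particular to these genes. Lyz was found in 281 of 2161 cells in WT and in 0.344% in runx1-/- at 2.5 dpf. The share with lyz was 5.53% against 1.59% at 6 dpf and 6.44% against 8.06% at 10 dpf. At 16 dpf it was 20.2% in WT, 2.80% in bloodless and 6.18% in recovered. Npsn was found in 4.21% of WT cells at 2.5 dpf and in 0 of 1162 thinned runx1-/- cells, which allows a share of up to 0.317% by the exact binomial interval. Here too, no runx1-/- cell under 2907 UMIs could be counted. Without thinning 1 runx1-/- cell had npsn.

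Within neutrophil-like cells, adam8a rose in runx1-/-. It had 273, 209, 119 and 57.0 CPM in WT at 2.5, 6, 10 and 16 dpf. The adam8a level was 230 in runx1-/- at 10 dpf, 874 in bloodless and 527 in recovered, each above WT of its age, and beyond counting error (log2 0.96, 3.94 and 3.21). The fit over 7 libraries gave 2.03 (SE 0.45, adjusted p = 0.00433, edgeR), and the call held in each of 13 other settings (adjusted p up to 0.0193). At 2.5 and 6 dpf only WT had enough such cells to enter the fit. With age held, genotype estimates in these cells therefore rest on 10 and 16 dpf, and both 16 dpf runx1-/- libraries are set against the same WT library. Leaving out 2.5 dpf, 6 dpf or the barcodes shared at 6 dpf could thus hardly change them. None of the 13 settings left out 16 dpf, since that fit was not possible. After thinning, an adam8a UMI was found in 13.4% of WT cells, 85.5% of bloodless and 59.7% of recovered cells at 16 dpf (32.2%, 86.7% and 77.0% without thinning).

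Cpa5 fell in the same cells. WT held 1796, 1998, 1446 and 3530 cpa5 CPM at 2.5, 6, 10 and 16 dpf, and runx1-/- held 1224 at 10 dpf, 1294 in bloodless and 1326 in recovered. All 3 runx1-/- values lay under the lowest WT value, and how many of all genes were separated in this way was not counted. Cpa5 fell by 1.33 on the log2 scale (SE 0.35, adjusted p = 0.0172, edgeR) and was lower in 3 of 3 comparisons beyond counting error. The call was lost without the recovered library, with library totals as the only scaling and with a stricter filter on cells (adjusted p up to 0.180).

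The other 6 genes did not pass. Lyz in neutrophil-like cells was 93947, 102136, 76381 and 139988 CPM in WT at 2.5, 6, 10 and 16 dpf, and 113573 in runx1-/- at 10 dpf, 57104 in bloodless and 112365 in recovered. The lyz difference was 0.57 at 10 dpf and -1.29 and -0.32 at 16 dpf, and the estimate was -0.55 (SE 0.49, adjusted p = 0.634, edgeR). Mpx went the opposite way, with -0.54 at 10 dpf, 1.28 in bloodless and 0.11 in recovered, from 1022, 802, 701, 1941 and 866 mpx CPM in WT at 10 and 16 dpf, runx1-/- at 10 dpf, bloodless and recovered. In the bloodless library 10 cells held 76.4% of all mpx UMIs. Its median neutrophil-like cell had 630 mpx CPM against 780 in WT at 16 dpf, so the median cell and the sum differ from WT in opposite directions. Without thinning, 70.0% against 88.9% of cells had an mpx UMI, at median depths of 2674.5 and 9431 UMIs. These shares were thus not taken at equal depth, and the part of depth in the medians was not tested. The median cell also held less mpx than WT in runx1-/- at 10 dpf (186 against 666 CPM) and in recovered (377 against 780). Npsn and srgn were above WT of the same age in 3 of 3 runx1-/- libraries beyond counting error, with estimates of 0.28 and 0.21 (adjusted p = 0.760 and 0.838, edgeR). Mmp9 was above WT in 3 of 3 as well, 2 of them beyond counting error. It had 530 CPM in runx1-/- at 10 dpf against 327 in WT, and 991 in bloodless and 361 in recovered against 338. The mmp9 estimate was 0.44 (adjusted p = 0.564, edgeR), opposite in sign to that over all cells. Lect2l was 5464 in runx1-/- at 10 dpf against 2028 in WT, 16975 in recovered and 9751 in bloodless against 9840 in WT. Without the bloodless library lect2l passed, with an estimate of 0.82 (SE 0.16, adjusted p = 6.2e-06, edgeR). That fit held a single runx1-/- and single WT library at each of 10 and 16 dpf, so few residual degrees of freedom were left. It called 785 of all 6978 genes tested, against 501 of 7334 in the fit over 7 libraries.

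In the genotype fit over 7 libraries 1 of the 8 genes was called higher and 1 lower, against 6.83% of 7334 genes called, 4.35% higher and 2.48% lower. With library totals as the only scaling the median of all genes moved to 0.36 and the split over all genes from 319 higher and 182 lower to 406 and 59. Of the 21 tested genes of the effector list, mmp13a (2.38, SE 0.40), a collagenase, il1b (2.41, SE 0.48), an inflammatory cytokine, and ncf1 (1.20, SE 0.37), a subunit of the oxidase, rose (adjusted p = 0.00021, 0.0016 and 0.0475, edgeR). Mmp13a and ncf1 are also markers by which the clusters were named.

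Age moved more of the 8 genes within neutrophil-like cells: 5 passed, against 17.1% of all genes. Npsn was 14344 CPM in WT at 2.5 dpf and 1861, 2502 and 2051 at 6, 10 and 16 dpf, a span of 2.91 between 2.5 and 16 dpf (adjusted p = 8.7e-05, edgeR). Mpx was 3473 at 2.5 dpf and 1071, 1022 and 802 later in WT (span 2.43, adjusted p = 0.00453). Mmp9 was 1606 at 2.5 dpf and 130, 327 and 338 later in WT (span 3.40, adjusted p = 4.8e-05). Adam8a also had its highest fitted level at 2.5 dpf (span 2.14, adjusted p = 0.0135). Lect2l was lowest at 6 dpf, with 1402, and highest at 16 dpf, with 9840 in WT (span 2.21, adjusted p = 0.000991).

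The 2.5 dpf value in this fit is a single WT library of 65 cells, in which the sum of mast cell markers was also highest. Without it npsn, mmp9, mpx and adam8a did not pass for age (edgeR adjusted p = 0.962, 0.394, 0.403 and 0.0512), while lect2l kept its call in each of 13 other settings. None of these settings left out 16 dpf, where lect2l was highest, since that fit was not possible. Leaving out the barcodes shared at 6 dpf changed nothing, since none of them was neutrophil-like. Mpx also lost its call at Leiden resolution 2 (edgeR adjusted p = 0.0742), and adam8a with library totals as the only scaling (0.178). Lyz and cpa5 did not pass (adjusted p = 0.909 and 0.357), and srgn came to 0.0540. Among the effector genes 10 of 21 passed for age. Lta4h (leukotriene synthesis), mmp25b and mmp13a (proteases), rac2 and cybb (oxidase) and spi1a (transcription factor) had their highest fitted level at 2.5 dpf, with spans of 2.72 for lta4h, 2.19 for mmp25b, 7.76 for mmp13a, 2.03 for rac2, 3.02 for cybb and 3.89 for spi1a. Cxcr1, a chemokine receptor gene (2.27), and ncf1 (1.63) were highest at 16 dpf, il1b (3.73) at 6 dpf, and myb, a progenitor transcription factor gene (4.70), at 10 dpf.

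The order in which the genes appear in cells was read from detection after thinning each neutrophil-like cell to 2000 UMIs. In the 4 WT libraries lyz was found in 99.8 to 100% of cells, srgn in 92.9 to 100% and npsn in 75.2 to 100%. Mpx (66.4 to 98.5%), cpa5 (62.8 to 96.9%) and lect2l (47.8 to 84.6%) came next, and mmp9 (16.2 to 80.0%) and adam8a (13.4 to 43.1%) were found in the fewest. These shares depend on the level of each gene as well as on how many cells express it.

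Pairs of genes were also compared cell by cell. Among 28 pairs of genes, 14 had more cells with the first gene alone than with the second alone in all 7 libraries that had at least 30 neutrophil-like cells. Npsn was found without lect2l in 200 cells and lect2l without npsn in 47, but this pair had no single order at 1000 UMIs (231 against 130 cells, with 5 libraries one way and 2 the other). Npsn was found without mpx in 338 cells and mpx without npsn in 42. Lyz was found without cpa5 in 266 cells and cpa5 without lyz in 12. Mpx and lect2l had no fixed order: mpx alone was more frequent in WT at 2.5 dpf (10 cells against 1), 6 dpf (27 against 3) and 10 dpf (29 against 8), and lect2l alone in WT at 16 dpf (125 against 50) and in all 3 runx1-/- libraries (47 against 13 at 10 dpf, 16 against 4 in bloodless and 99 against 23 in recovered).

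**Figure D3:**
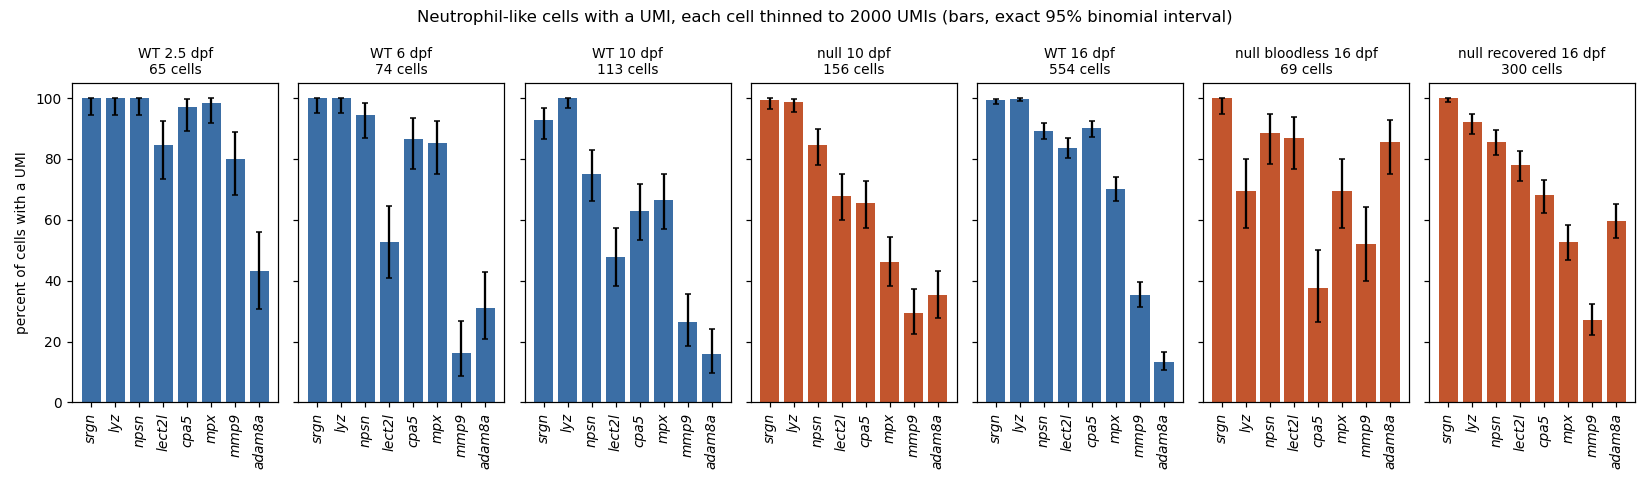
Percent of neutrophil-like cells with a UMI of each gene after thinning to 2000 UMIs per cell, in the 7 libraries with at least 30 such cells (null, runx1-/-), with exact 95% binomial intervals. Lyz is at or above 98.7% in all libraries except bloodless (69.6%) and recovered (92.0%), and adam8a reaches 85.5% in bloodless against 13.4% in WT at 16 dpf.

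Cells with npsn, lect2l or adam8a but no lyz were found, after thinning, mainly in the runx1-/- libraries at 16 dpf. In the 4 WT libraries 0 thinned cells had npsn without lyz, and 0, 4, 28 and 58 cells had lyz without npsn at 2.5, 6, 10 and 16 dpf. In the bloodless library 18 of 69 cells had npsn without lyz and 5 had lyz without npsn. The recovered library had 14 and 33 such cells of 300, and runx1-/- at 10 dpf had 0 and 22 of 156. Lect2l was found without lyz in 18 of 69 bloodless cells, 8 of 300 recovered cells, 1 of 156 runx1-/- cells at 10 dpf and 0 WT cells. Adam8a was found without lyz in 18 bloodless and 10 recovered cells and in 0 cells of the other 5 libraries. Over the 7 libraries mmp9 was found without lyz in 25 cells and lyz without mmp9 in 855. Of these 25 cells, 1 was a WT cell at 16 dpf, with mmp9 alone of the 8 genes.

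Per cell, lyz covered a wide range in the bloodless library. The median neutrophil-like cell held 914 lyz CPM there, against 134973 in WT at 16 dpf, 69781 in recovered and 65187 to 96232 in the other 4 libraries. Under a limit of 3000 CPM, set after these values were seen, fell 56 of 90 bloodless cells (62.2%), 60 of 369 recovered cells (16.3%) and 19 of 677 WT cells at 16 dpf (2.81%). At 10 dpf it was 11 of 128 WT and 11 of 187 runx1-/- cells, then 2 of 84 in WT at 6 dpf and 0 of 65 at 2.5 dpf. The WT library at 2.5 dpf held no barcode under 2915 UMIs. Between 1000 and 10000 CPM, near this limit, lay 19 bloodless, 54 recovered and 41 WT cells at 16 dpf. The classes are therefore described as ranges, and whether they are separate types was not tested.

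Npsn, mpx, lect2l and adam8a were not missing from the bloodless cells under the limit. Of these 56 cells, 87.5% had an npsn UMI, 69.6% an mpx UMI, 91.1% a lect2l UMI and 89.3% an adam8a UMI, at a median depth of 2432.5 UMIs. Cpa5 was found in 30.4% of them, against 58.8% of the 34 bloodless cells above the limit. Npsn (2530 against 4567 CPM), srgn (5446 against 12114), lect2l (4767 against 14292) and cpa5 (672 against 1860) were lower under the limit. Mpx (2237 against 1671 CPM), mmp9 (1791 against 262) and adam8a (1112 against 657) were higher. The other neutrophil markers summed to 13250 CPM in the 56 cells under the limit, against 6539 in the 34 bloodless cells above the limit. Adam8a was detected in 82.4% of those 34 cells as well, against 31.8% of the 658 WT cells above the limit at 16 dpf. In the 19 WT cells under the limit at 16 dpf npsn was found in 73.7%, mpx in 78.9%, lect2l in 52.6% and adam8a in 47.4%. In the 11 WT cells under the limit at 10 dpf npsn was found in 27.3%, mpx in 18.2% and lect2l in 0. Of the 2 WT cells under the limit at 6 dpf, 50.0% had a lyz UMI. Both had UMIs of npsn, mpx, mmp9 and cpa5, and neither had lect2l or adam8a. Depth differed between these libraries (median 2674.5 UMIs per neutrophil-like cell in bloodless, 3628 in recovered and 9431 in WT at 16 dpf), and its part in the unthinned values was not tested.

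**Figure D4:**
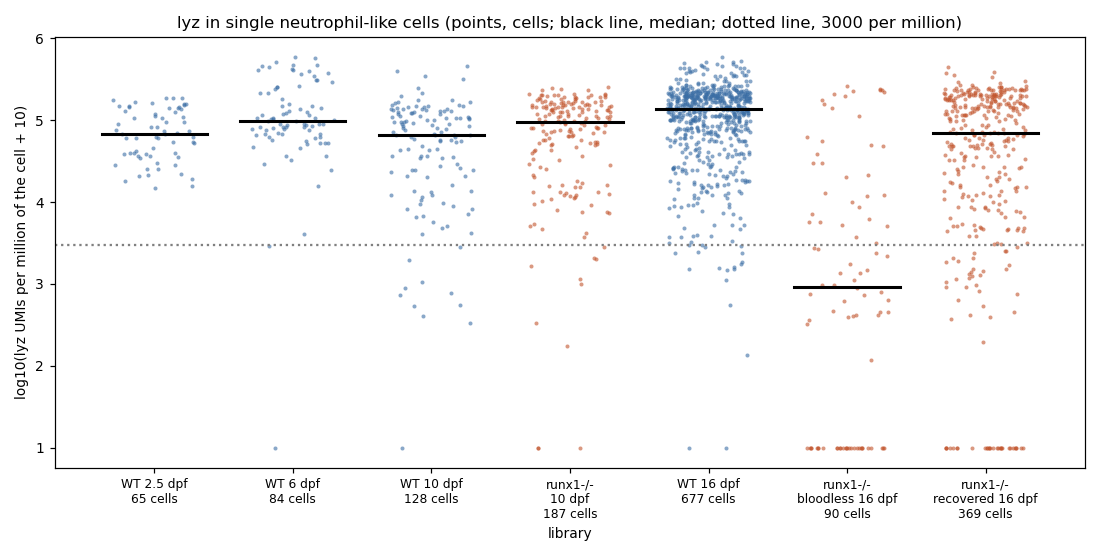
Lyz CPM in each neutrophil-like cell, as log10 of the value plus 10, in the 7 libraries with at least 30 such cells; points are cells, black lines are medians and the dotted line marks 3000 CPM. In the bloodless library 62.2% of cells lie under the line, against 2.81% in WT at 16 dpf.

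The neutrophil-like cells of each library were ranked by the share of 27 proliferation genes, an axis that does not use the 8 genes. The tertile with the lowest share was compared with the tertile with the highest in the same library. Whether this axis follows maturation was not tested. HSPC markers went from 61.3 CPM in the highest tertile to 114 in the lowest in WT at 2.5 dpf. At 6, 10 and 16 dpf the WT values were 146 and 58.7, 194 and 215, and 72.3 and 85.7. In runx1-/- HSPC markers went from 199 to 195 at 10 dpf, from 171 to 81.7 in bloodless and from 196 to 135 in recovered. Lect2l was higher in the less proliferating tertile by 0.77 on the log2 scale (SE 0.19, adjusted p = 0.00676, edgeR with library as a block), in 5 of 7 libraries. Its levels in the highest and lowest tertiles were 2077 and 1515 CPM in WT at 2.5 dpf. At 6 dpf they were 1646 and 2460. WT at 10 dpf had 1204 and 3769. WT at 16 dpf had 10405 and 9748. In runx1-/- lect2l went from 4333 to 6039 at 10 dpf, from 5201 to 11961 in bloodless and from 11796 to 25997 in recovered.

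Mmp9 and adam8a passed too, while the other protease genes, npsn and cpa5, did not. Mmp9 was higher in the less proliferating tertile by 0.59 (SE 0.17, adjusted p = 0.0224) and adam8a by 0.52 (SE 0.16, adjusted p = 0.0289), each in 5 of 7 libraries. In WT at 10 dpf mmp9 was 252 CPM in the highest and 590 in the lowest tertile. Adam8a in the recovered library was 403 and 727. When cells were first thinned to 2000 UMIs these 2 calls were lost, while lect2l kept its call. All 3 calls were lost without 10 dpf (edgeR adjusted p = 0.126 for lect2l, 0.215 for mmp9 and 0.0805 for adam8a). Mmp9 was also lost without 6 dpf (0.0543), and adam8a without 16 dpf (0.361), the bloodless (0.0639) or the recovered library (0.108). Over all 16 other settings lect2l lost its call in 1, mmp9 in 6 and adam8a in 9.

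The other 5 genes did not pass along this axis. Npsn had an estimate of 0.30 (SE 0.12, adjusted p = 0.0872), lyz 0.35 (SE 0.19, adjusted p = 0.221), cpa5 0.23, srgn 0.23 and mpx -0.13 (SE 0.20, adjusted p = 0.704, edgeR). Mpx was 3443 CPM in the most proliferating tertile of the bloodless library and 700 in the least, while lyz went from 22838 to 73809 in the same tertiles. In the other 6 libraries mpx in the lowest tertile was between 0.650 and 1.34 times its level in the highest tertile.

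Of the 8 genes, 3 were called higher in the less proliferating tertile and 0 lower, against 17.4% of 3832 genes called, 8.12% higher and 9.29% lower. With library totals as the only scaling the split over all genes moved from 311 higher and 356 lower to 179 and 532, and mmp9 and adam8a lost their calls. Mast cell markers, among them alox5a of the effector list, moved with this axis as a sum. They were higher in the lowest than in the highest tertile in 7 of 7 libraries (3100 and 5470 CPM in WT at 2.5 dpf, 65.9 and 174 in WT at 10 dpf, and 157 and 394 in recovered, highest tertile first). The part of mast cell markers in the tertile results was not tested. Summed neutrophil markers were also higher in the lowest tertile in 7 of 7 libraries. In the highest and lowest tertiles they were 8167 and 9534 CPM in WT at 2.5 dpf, 3123 and 3556 in WT at 10 dpf. In recovered they were 5237 and 10124. Library depth moved too: the median neutrophil-like cell of WT at 16 dpf held 11489 UMIs in the highest tertile and 3718.5 in the lowest, and in 7 of 7 libraries the lowest tertile was the shallower of the pair. Ranked by stem and progenitor markers in place of proliferation genes, mpx was higher in the low tertile (0.82, SE 0.18, adjusted p = 0.00399, edgeR), opposite in sign to its estimate above, and npsn, lect2l, mmp9 and adam8a passed as higher too (0.71, 0.98, 1.53 and 0.68). Under this ranking 618 of all 3949 genes tested were called, 364 higher and 254 lower. Of the effector list 7 of 21 genes were higher in the less proliferating tertile and 0 lower. They were the receptor genes cxcr1 (2.38, SE 0.36) and csf3r (0.62, SE 0.20), the protease genes mmp13a (1.05, SE 0.31) and mmp25b (0.89, SE 0.18), the oxidase genes cyba (0.67, SE 0.15) and ncf1 (0.59, SE 0.16), and il1b (0.64, SE 0.20). All of these except cyba and il1b are also markers by which the clusters were named.

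Whether this order differed between genotypes was tested as an interaction, and 0 of the 8 genes passed in edgeR, against 0.496% of all genes (0.391% higher and 0.104% lower). At an unadjusted p under 0.05, mpx, lyz and srgn were counted, with interaction estimates of -0.81, 0.77 and 0.51 (adjusted p = 0.421, 0.419 and 0.465). Of all 3832 genes tested, 381 were under this unadjusted limit. DESeq2 called 0 of the 8 as well. Without the 10 dpf libraries mpx, lyz and lect2l passed (edgeR adjusted p = 0.0133, 0.0183 and 0.0020), and in that fit both remaining runx1-/- libraries are the bloodless and recovered ones. That fit called 94 of all 3140 genes tested. The effector gene ncf1 passed over all libraries, with 1.15 (SE 0.21, adjusted p = 0.00526, edgeR).

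**Figure D5:**
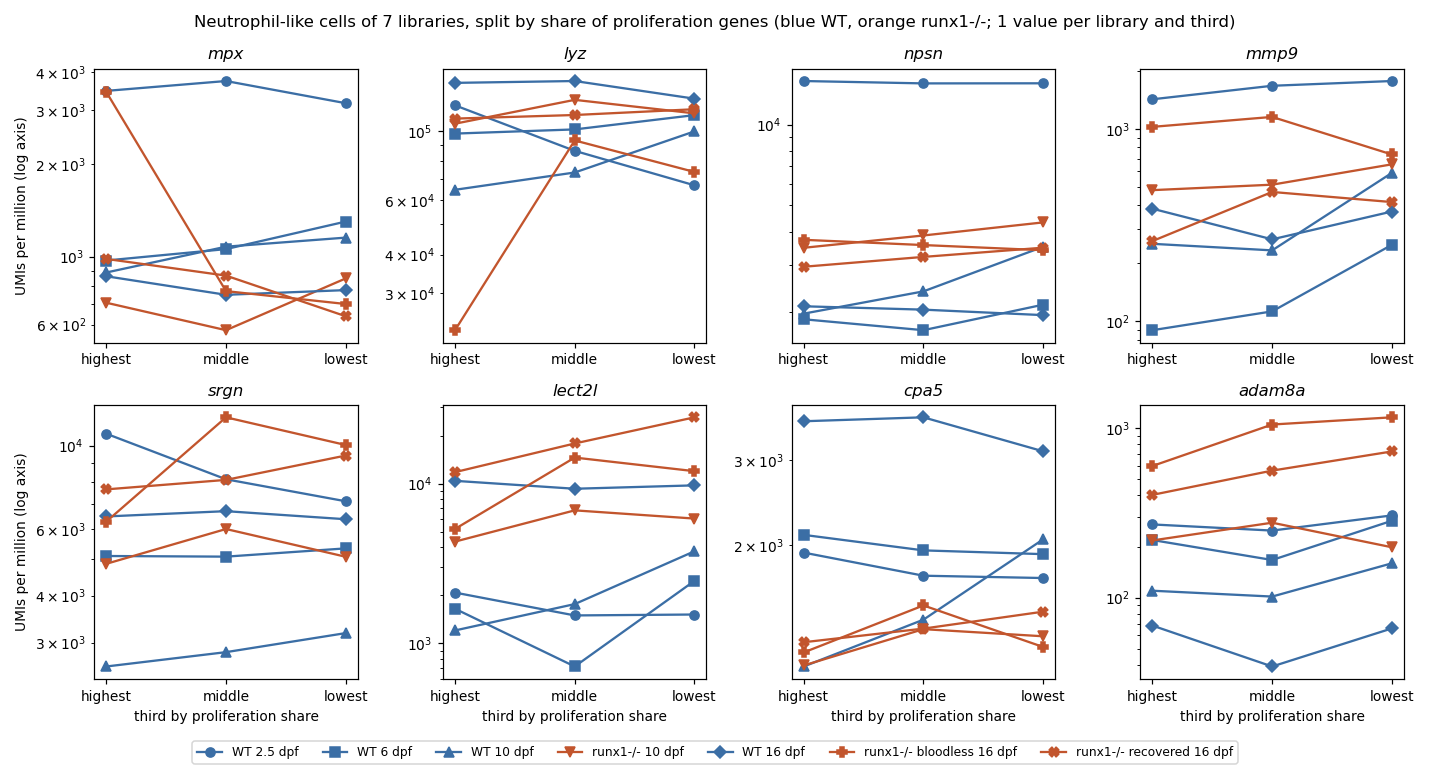
CPM of each gene in neutrophil-like cells split into tertiles by the share of proliferation genes, on a log axis, for the 7 libraries with at least 30 such cells (blue WT, orange runx1-/-). Lect2l ends higher in the lowest tertile in 5 of 7 libraries, and in the bloodless library mpx goes from 3443 to 700 while lyz goes from 22838 to 73809.

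Over 133 sums of a library and a cluster of at least 20 cells, the genes with the most similar pattern to each of the 8 were named by Pearson correlation of log2(CPM + 1), as a description, since sums of 1 library share its depth. Ch25hl2 was the nearest gene to mpx (r = 0.80), lyz (0.83) and npsn (0.85). Next to mpx came si:ch73-359m17.5 (0.75) and si:ch1073-429i10.1 (0.74), next to lyz abcc13 (0.81) and si:ch73-359m17.5 (0.79), and next to npsn c6ast1 (0.83) and si:dkey-19b23.14 (0.82). Nearest to lect2l were BX908782.2 (0.89), si:dkey-195m11.11 (0.86) and si:ch211-9d9.1 (0.86), and nearest to cpa5 were ctss1 (0.77), ved (0.76) and ponzr6 (0.76). Mmp9 lay nearest to lpcat2 (0.83), si:dkey-34d22.5 (0.82) and si:ch211-276a23.5 (0.81), and adam8a to abcb9 (0.77), CT030188.1 (0.75) and nccrp1 (0.74). Srgn lay nearest to wipf1a (0.86), arhgap45b (0.86) and coro1a (0.85), the last an actin-binding protein of leukocytes. Among the 8 genes the closest pair was lyz and npsn (r = 0.86), then mpx and npsn (0.79), while srgn had r of 0.46 to 0.60 with each of the others.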

How the data were processed

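UMI counts per gene and barcode, not normalized, were used as the authors deposited them; the submitters' processing notes name Cell Ranger 2.0.2 and GRCz10, and per the file headers 5 matrices at 6 and 16 dpf were written by version 3.1.0. Further settings are not given in the sources used here. The 8 genes, the gene lists and the tests were chosen with earlier results of these data known. Kept barcodes had at least 500 UMIs, 200 genes and at most 20% mitochondrial UMIs, and 1119 cells with the highest Scrublet scores were removed, at 0.8% per 1000 cells, since the automatic threshold called 229 in all. Cells were clustered within each age without the 8 genes (scanpy 1.11.5, 2000 variable genes, 30 components, 15 neighbours, Leiden resolution 1). A cluster was named from at least 3 detected markers, at least 1 among its 10 leading genes. Counts summed per library were tested with edgeR 4.0.16 (quasi-likelihood test, Benjamini-Hochberg adjustment over all genes, threshold 0.05), with libraries of at least 10 neutrophil-like cells, or 30 for tertiles. DESeq2 1.42.0 was an alternative. Named genes were the 8, effector genes passing a test, and the 3 nearest genes of each; 1 effector gene result is not reported here. In simulated data with 200 genes changed by a log2 fold of 2, the genotype test over all cells recovered 32.0%, the age test over all cells 2.00%, and the neutrophil-like tests 65.0 to 90.5%.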

Additional observations from a re-analysis of the deposited data

Results flagged for a closer look

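For some of the 8 genes the runx1-/- libraries lay on opposite sides of WT at different ages, each beyond counting error, and these differences between ages were not tested as such. In all cells the log2 difference of runx1-/- from WT ran from -10.35 at 2.5 dpf to 0.47 at 10 dpf for lyz and from -11.00 to 0.47 for npsn. It ran from -2.29 at 2.5 dpf to 0.50 at 10 dpf for srgn, and from -3.17 in the bloodless library to 1.31 at 10 dpf for lect2l. For adam8a it ran from -2.58 at 2.5 dpf to 0.36 in the bloodless library.

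In sums over neutrophil-like cells mpx and lyz changed sides in opposite directions between 10 and 16 dpf. Mpx was -0.54 at 10 dpf and up to 1.28 in the bloodless library, where 10 cells held 76.4% of all mpx UMIs and the median cell had 630 CPM against 780 in WT. The median cell was below WT in runx1-/- at 10 dpf (186 against 666) and in recovered (377 against 780) as well. For mpx only the sums thus changed sides, but these medians were not taken at equal depth. Lyz was 0.57 at 10 dpf and down to -1.29 in the bloodless library. By the interaction of tertile and genotype, ncf1, a subunit of the neutrophil oxidase, differed between genotypes along the proliferation axis by 1.15 (edgeR).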

How the results depend on the processing

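All fits rest on 9 libraries with no replicate of a group, so counts of calls moved widely. DESeq2 called 1425 genes for genotype in all cells, 6441 for age in all cells, 224 for genotype and 577 for age in neutrophil-like cells. Without a filter on low counts 776 genes were called for genotype in all cells. Leaving out 1 age or library gave 3 to 311 calls for genotype and 1022 to 4762 for age in all cells, 379 to 785 for genotype and 398 to 2127 for age in neutrophil-like cells, 268 to 664 for tertiles and 2 to 94 for the interaction. For tertiles, thinning gave 75 calls. For the interaction, library totals gave 11, no doublet removal 11, Leiden resolution 2 gave 2, thinning 2 and ranking by stem and progenitor markers 0 (188 genes at an unadjusted p under 0.05). Under that ranking mpx turned to 0.82. The cause of these shifts was not tested.

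Over all settings that leave out an age or library, 27 calls of single genes were lost, 14 gained and 231 results stayed on their side of the threshold. Over the other settings 15 were lost, 18 gained, 1 reversed and 366 stayed. Shares of cells lower in runx1-/- numbered 31 at 1000 UMIs and 35 of 40 without thinning, and 14 pairs had 1 order in all libraries at 1000 UMIs, where mpx with lyz entered and npsn with lect2l dropped out. Leaving out the barcodes shared at 6 dpf was chosen after seeing the data. It removed the call of mmp9 in all cells. The fits of genotype and age in neutrophil-like cells without 16 dpf could not be fitted, since no residual degrees of freedom were left. No paired analysis was possible because the labels give no replicate numbers that groups could share; the genotype fits hold age as a factor.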
